A study of Homo sapiens with 4 samples.

Results

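Antisense lncRNA genes named -AS1 are genes for long non-coding RNAs that lie next to, inside or across another gene on the opposite strand and carry that gene's symbol with -AS1 added. They were chosen by annotation and count: every lncRNA gene whose symbol ends in -AS1, except OIP5-AS1, with at least 40 counts summed over the 4 libraries. Of 1627 such symbols among the 60675 genes counted, 457 were members, 758 had 1 to 39 counts and 412 had 0. The gene without the -AS1 ending is called the partner. The minimum of 40 was the only measured value that selected the members, and it favours genes with high counts in either group. As the vehicle libraries were deeper, it admits genes high with vehicle at lower levels than genes high with CPI-455. In both CPI-455 libraries 5 members were at 0 counts, and in both vehicle libraries 0 members were. Just outside it were KANSL1L-AS1, PKD1-AS1 and RHOXF1-AS1 with 39 counts each, and just inside it were DDN-AS1 and HDHD5-AS1 with 40 each.

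The cells were LNCaP, an androgen-responsive prostate cancer line established from a lymph node metastasis. All cultures stood in hormone-depleted medium and received 1 nM R1881, a synthetic androgen dissolved in ethanol, for 72 h, so there was no library without androgen. R1881_vehicle, the control, had DMSO as its vehicle and no inhibitor. R1881_CPI455 had 50 µM CPI-455 dissolved in DMSO, and each group had 2 biological replicates. CPI-455 is a small-molecule inhibitor of the KDM5 enzymes, which remove methyl groups from lysine 4 of histone H3, a mark of active promoters. The comparison asks which of these RNAs, and which of their partners, differed in level when KDM5 activity was inhibited in the presence of androgen.

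Antisense lncRNAs start in several kinds of place: back to back with the partner's promoter, beyond the partner's 3′ end running towards it, or within its introns. Many head-to-head antisense RNAs arise where a promoter is transcribed in both directions, and some are unstable and found mainly in the nucleus. Individual members have been described as acting on the partner's promoter, as sponges for miRNAs or as scaffolds for chromatin enzymes, and others as by-products of transcription. Because an antisense RNA lies across its partner's transcript, a count that ignores strand cannot always say which strand a fragment came from.

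That limit applies here. Strand was ignored in counting, and fragments on exons of more than 1 gene were left out, so a fragment of partner pre-mRNA that falls on an exon of the antisense gene alone was counted for the antisense gene. The libraries held 19623553 and 20690819 counts with vehicle against 9522920 and 5401588 with CPI-455, and 3 counts equal 0.137 to 0.142 CPM with vehicle but 0.337 to 0.595 CPM with CPI-455, CPM being counts scaled to the normalized library size. The luminal markers summed to 883 to 957 CPM in the vehicle libraries and 383 to 438 CPM in the CPI-455 libraries, with 6 of 9 called lower, among them KLK3. The 10 markers of basal, stromal, blood, endothelial and neuroendocrine cells summed to 15 to 15.9 CPM and 21.0 to 22.9 CPM, with KRT5 at 0 in every library, COL1A1 called higher and CHGA called lower. Among the inhibitor's targets KDM5B was called lower (log2 fold change -1.07), and KDM5A and KDM5C were not called. In these bulk libraries fewer cells of a type and less RNA per cell cannot be told apart, and the part of these shifts in the results was not tested.

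More -AS1 genes were called higher than lower with CPI-455. A gene was called when its FDR, the Benjamini-Hochberg adjusted p of edgeR's quasi-likelihood test over all 17600 genes tested, was below 0.05 and its change at least 2-fold, and all log2 fold changes are CPI-455 over vehicle. Of the 447 members tested 158 were called higher, or 35.3%, against 21.0% of all genes tested, and 52 were called lower, or 11.6%, against 21.3% of all genes. In both directions together 210 members were called, or 47.0%, beside 42.4% of all genes. In 209 of these 210 the libraries of the groups did not overlap in CPM, so an absence of overlap adds little to a call. The median log2 fold change of the 447 tested members was 0.68, with the middle of the distribution from -0.47 to 1.65. The median of all tested genes was -0.04. With size factors from upper quartiles the median of all genes moved to 0.14 and with library totals alone to -0.23. The distance of the members' median from that of all genes was 0.72 under each. Size factors shift all genes nearly alike, so this distance could hardly move with them. Taking out a smooth trend along gene length and GC content reduced that distance to 0.35 and gave 131 higher and 71 lower, so that 64.9% of the calls were higher in place of 75.2%. Leaving out vehicle replicate 1 left 104 higher and 27 lower, and leaving out vehicle replicate 2 left 95 and 21. Without CPI-455 replicate 1 there were 165 and 78, and without CPI-455 replicate 2 there were 168 and 65.

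The shares of members called lay close to those of lncRNA genes as a whole, which include them. Of 2271 tested lncRNA genes 38.5% were called higher, 10.3% lower and 48.7% either way, while of 13813 tested protein-coding genes 15.6% were called higher and 24.4% lower. Genes named LINC, intergenic lncRNAs, numbered 219 tested, of which 60 were called higher and 26 lower. Genes with other positional endings such as -DT, for a divergent transcript, had 111 of 325 called higher and 32 lower, and the remaining lncRNA genes 545 of 1280 higher and 123 lower. Members took 0.277% and 0.263% of all counts in the libraries with vehicle and 0.467% and 0.436% with CPI-455. Such a sum is weighted to the most abundant members, the largest of which held 14751 counts beside a median of 140. The matching shares of other lncRNA genes are not given here, so it does not describe the typical member.

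The filter on low counts let a gene through on 1 group alone. Of the tested members 302 passed it in both groups, 76 only in both vehicle libraries, 63 only in both CPI-455 libraries and 6 in 1 library of each. The 302 held 112 genes called higher and 31 called lower. A further 10 members were not tested. Members' summed counts ran from 40 to 14751 with a median of 140, so most of them were measured on few fragments, and small changes were not detectable at this depth.

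**Figure D1:**
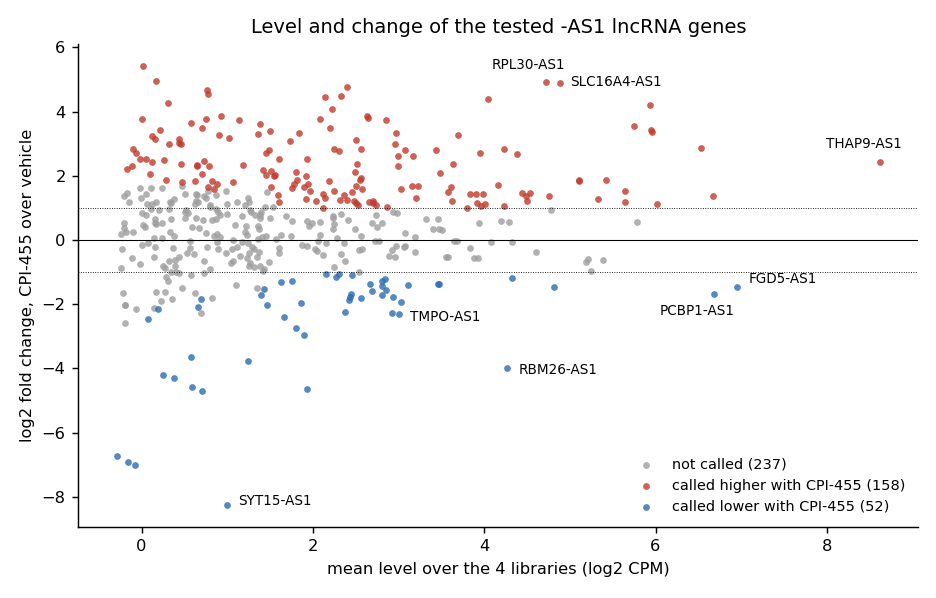
Each point is 1 of the 447 tested -AS1 genes, with its mean level over the 4 libraries (log2 CPM) on the x axis and its log2 fold change, CPI-455 over vehicle, on the y axis. Red marks the 158 called higher, blue the 52 called lower and grey the rest, dotted lines are at a 2-fold change, and the 4 lowest blue points are genes with 0 counts in both CPI-455 libraries, whose fitted size depends on the count added.

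THAP9-AS1 was the most abundant member and a clear example of the rise. Its partner THAP9 encodes a protein derived from a DNA transposase. THAP9-AS1 had 130 and 120 CPM with vehicle and 689 and 648 CPM with CPI-455, a log2 fold change of 2.42 (SE 0.11, FDR = 6.56e-07). Both treated libraries stood far above both controls. THAP9 itself had 12.9 and 13.2 CPM with vehicle and 8.10 and 15.5 CPM with CPI-455, and the treated libraries lay on either side of the controls (log2 fold change -0.19, FDR = 0.604). Per kilobase of exon the level of THAP9-AS1 was 9.43 times that of THAP9 with vehicle and 55.9 times with CPI-455. The genes start 276 bases apart on opposite strands, and 6.30% of the exon bases of THAP9-AS1 (chr4:82893009-82900960, minus strand, GRCh38) lie in the span of THAP9.

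FGD5-AS1 and PCBP1-AS1, which follow it in abundance, went the other way. FGD5-AS1, named for a guanine nucleotide exchange factor, had 177 and 182 CPM with vehicle and 67.2 and 63.7 CPM with CPI-455 (log2 fold change -1.45, SE 0.12, FDR = 7.21e-06). Its partner was scarcely expressed, with 60 and 62 counts with vehicle against 4 and 1 with CPI-455, and was also called lower (-2.98). PCBP1-AS1, which runs around the single-exon gene for the RNA-binding protein PCBP1, had 167 and 140 CPM with vehicle and 49.9 and 45.8 CPM with CPI-455 (log2 fold change -1.68, SE 0.14, FDR = 8.42e-06). For both antisense genes the treated libraries lay below the controls with no overlap. PCBP1 had a log2 fold change of -0.65, short of 2-fold.

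Among the other 7 of the 10 most abundant members, 6 were called higher. GABPB1-AS1, beside the gene for a subunit of the ETS-family factor GABP, had 58.9 and 57.2 CPM with vehicle and 151 and 147 CPM with CPI-455 (log2 fold change 1.36). SLC9A3-AS1, beside a sodium-proton exchanger, had 24.8 and 20.5 CPM with vehicle and 181 and 151 CPM with CPI-455 (2.88). MMP25-AS1, inside the gene for a membrane-anchored metalloproteinase, had 12.9 and 10.2 CPM against 123 and 112 CPM (3.35). The partner MMP25 was also higher, by 2.85, and the ratio between the genes was not called. RUSC1-AS1 had 12.3 and 9.43 CPM with vehicle and 122 and 112 CPM with CPI-455 (3.43), while the adaptor gene RUSC1 had 62.0 and 56.7 CPM and 72.4 and 58.9 CPM and was not called (0.15). In all of these the antisense RNA's treated libraries exceeded the controls. MELTF-AS1, inside the melanotransferrin gene, had the greatest rise of the 10, from 7.57 and 5.45 CPM to 131 and 111 CPM (4.22, SE 0.19, FDR = 5.92e-07). EPB41L4A-AS1 had 46.2 and 44.3 CPM with vehicle and 65.6 and 66.6 CPM with CPI-455 and was below the 2-fold limit (0.55).

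SLC16A1-AS1 moved against its partner. SLC16A1 encodes MCT1, a carrier of lactate and other monocarboxylates. SLC16A1-AS1 had 42.3 and 39.9 CPM with vehicle and 81.9 and 98.9 CPM with CPI-455 (log2 fold change 1.13, SE 0.14, FDR = 0.000108), a call that was lost without CPI-455 replicate 2, where the log2 fold change was 0.95, and with library totals alone. SLC16A1 had 594 and 536 CPM with vehicle and 100 and 124 CPM with CPI-455 (log2 fold change -2.34, FDR = 1.43e-06). Neither gene's groups overlapped. Per kilobase the antisense level was 0.0381 of the partner's level with vehicle and 0.422 of it with CPI-455.

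The most raised members with at least 100 counts began from low levels with vehicle. Ranking by the size of a rise favours such genes, so this low start follows in part from the choice. RPL30-AS1, inside the gene for a ribosomal protein of the large subunit, had 27 and 52 counts with vehicle against 466 and 306 with CPI-455 (log2 fold change 4.93, SE 0.27, FDR = 1.09e-06). All of its exon bases lie in the span of RPL30, which was itself called higher (1.57). SLC16A4-AS1, inside a gene of the monocarboxylate carrier family, had 41 and 48 counts with vehicle against 631 and 263 with CPI-455 (4.90, SE 0.23, FDR = 7.26e-07). Its partner SLC16A4 had 70 and 62 counts with vehicle against 22 and 8 with CPI-455, in libraries of lower depth, and was not called (-0.56). FMNL1-AS1, THBS3-AS1, RDH10-AS1 and LIX1L-AS1 each had 7 to 16 counts in either vehicle library and 60 to 109 in either CPI-455 library, with log2 fold changes of 4.77, 4.49, 4.47 and 4.09. KMT2E-AS1, back to back with a gene of the chromatin regulator family that holds the MLL proteins, had 50 and 23 counts with vehicle against 340 and 168 with CPI-455 (4.39). For all 7 genes each CPI-455 library exceeded each vehicle library in counts despite its lower depth.

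Their partners did not move alike. THBS3, a thrombospondin gene, rose by 3.35 with its antisense gene, and FMNL1, a formin gene, by 1.07. RDH10, whose enzyme oxidizes retinol, had a log2 fold change of -0.49 and KMT2E one of 0.59, both under 2-fold.

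The most lowered members with at least 100 counts included 1 that was not detected with CPI-455. Ranking by the size of a fall likewise favours genes with few counts with CPI-455. SYT15-AS1, tail-to-tail with a synaptotagmin gene, had 48 and 67 counts with vehicle against 0 and 0 with CPI-455 (FDR = 0.00107). Set against the floor of 3 counts in each CPI-455 library, its level was at least 5.73-fold lower. RAET1E-AS1, across the gene for a ligand of the immune receptor NKG2D, had 102 and 134 counts with vehicle against 3 and 0 with CPI-455 (FDR = 0.000365), and the ratio of vehicle to CPI-455 was 25.5 with an exact 95% counting interval of 8.63 to 125. BAALC-AS1 had 62 and 73 counts with vehicle against 1 and 2 with CPI-455, a ratio of 14.6 with an interval of 4.89 to 71.7, and its call was lost without vehicle replicate 2 (FDR = 0.0582). Such intervals cover counting error only. In these 3 genes every vehicle library held over 40 counts and every CPI-455 library 3 or fewer.

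RBM26-AS1 was the best measured of the strong falls. It had 604 and 789 counts with vehicle against 17 and 11 with CPI-455, or 32.4 ± 5.33 CPM against 2.05 ± 0.191 CPM (SD, n = 2; log2 fold change -4.0, SE 0.28, FDR = 3.33e-06). The partner RBM26, which encodes an RNA-binding protein, had 242 and 241 CPM with vehicle and 139 and 144 CPM with CPI-455 (-0.78), and the ratio of antisense to partner fell by 3.20 on the log2 scale (FDR = 0.000627). The starts of this pair lie 168 bases apart. TMPO-AS1, beside the gene for the lamina-associated polypeptide LAP2, had 10.6 and 12.1 CPM with vehicle and 2.25 and 2.38 CPM with CPI-455 (-2.30, FDR = 0.0002), while TMPO had a log2 fold change of -0.14 and was not called. PRDM6-AS1, RAB35-AS1 and UGDH-AS1 had log2 fold changes of -2.96, -2.74 and -2.40, and that of RAB35-AS1 was -4.53 without CPI-455 replicate 1 and -2.24 without CPI-455 replicate 2. UGDH makes UDP-glucuronic acid, which is used to inactivate androgens, and the call for UGDH-AS1 was lost without vehicle replicate 1 (FDR = 0.0616) and without vehicle replicate 2 (FDR = 0.0653). All 5 genes are head-to-head with their partners. The libraries of the groups did not overlap in any of them, as in 209 of the 210 called members.

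**Figure D2:**
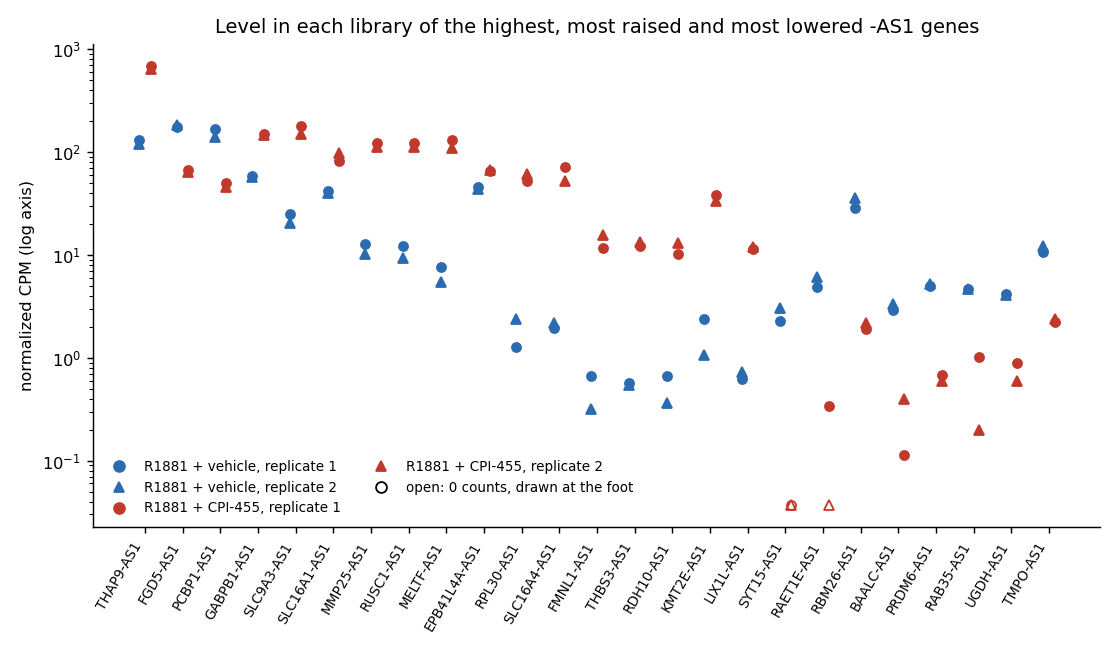
Normalized CPM on a log axis in each library for the 10 most abundant, the 8 most raised and the 8 most lowered -AS1 genes, MELTF-AS1 being in both of the first 2 sets. Blue is vehicle and red CPI-455, circles are replicate 1 and triangles replicate 2, and open symbols at the foot are libraries with 0 counts. In every gene drawn the blue and red symbols do not overlap, which held for 209 of the 210 called -AS1 genes.

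Partners were found for 454 of the 457 members, and 451 of them are protein-coding. KRTAP5-AS1, HOXC-AS1 and HOXB-AS1 are named for gene clusters and have no single partner. Of 433 partners tested 72 were called higher and 93 lower. In the 424 pairs with both genes tested, 72 partners, or 17.0%, were called higher and 90, or 21.2%, lower, with a median log2 fold change of -0.12, near the all-gene shares given above. The -AS1 genes of the same pairs had 150 called higher and 50 lower. Both genes were higher in 39 pairs and both lower in 16. The antisense gene alone was higher in 91 pairs and alone lower in 31, and the partner alone was higher in 30 and alone lower in 54. In 20 pairs the antisense gene was higher and the partner lower, in 3 the reverse held, and in 140 neither was called. Across the pairs the changes had a Pearson correlation of 0.24 and a Spearman correlation of 0.24, as a description over genes measured in the same 4 libraries, some of whose exons overlap.

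**Figure D3:**
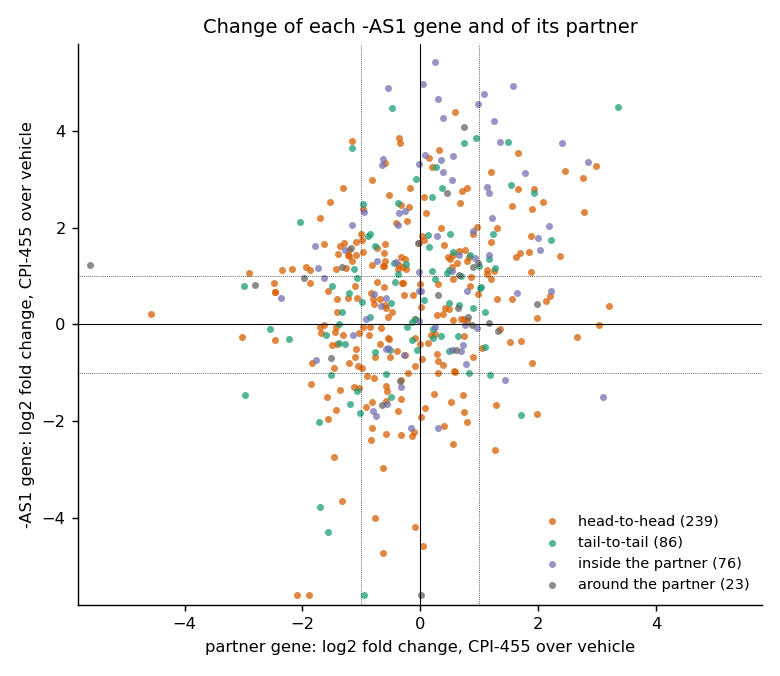
Each point is 1 of 424 pairs, with the partner's log2 fold change, CPI-455 over vehicle, on the x axis and that of the -AS1 gene on the y axis, coloured by how the pair is arranged. Dotted lines mark 2-fold changes, 5 pairs beyond 5.6 are drawn at that limit, and points are more frequent above the horizontal zero line than below it, while they spread on both sides of the vertical one.

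The ratio of antisense to partner was tested directly, within each library, over a table of 1512 lncRNA pairs. In that table the share of ratios called was 48.1%, with 39.7% higher and 8.40% lower, with a median change of 1.06 on the log2 scale. Among the 424 -AS1 pairs 146 ratios were called higher, or 34.4%, and 42 lower, or 9.91%, with a median change of 0.69. Without vehicle replicate 1 there were 87 and 22, and without vehicle replicate 2 there were 77 and 17. Per kilobase of exon the median -AS1 gene stood at 20.5% of its partner's level with vehicle and at 30.6% with CPI-455, over 441 pairs. The antisense gene was above its partner in 101 of these pairs with vehicle and in 114 with CPI-455.

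The greatest rises of the ratio, at 100 counts or more for each gene, were in SLC16A4-AS1 (5.48 on the log2 scale), ASH1L-AS1 (4.96), RDH10-AS1 (4.96), GATA6-AS1 (4.23), PARD6G-AS1 (4.21) and FOXP4-AS1 (4.15). ASH1L encodes a histone methyltransferase, and it had 183 and 160 CPM with vehicle and 76.8 and 76.1 CPM with CPI-455, while ASH1L-AS1 had 1.42 and 0.733 CPM with vehicle and 11.5 and 19.0 CPM with CPI-455. Neither gene's groups overlapped. GATA6, a transcription factor of endoderm, was not called (-0.36, FDR = 0.156), and GATA6-AS1 went from 26 and 17 counts with vehicle to 138 and 68 with CPI-455 (3.85, FDR = 1.89e-05). Here the exons of the antisense gene lie outside the span of GATA6 and share no base with another gene's exons.

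Falls of the ratio were led by SYT15-AS1 (-7.29, with 0 counts of the antisense gene in both treated libraries, so a size that depends on the count added), GLIPR1-AS1 (-4.89), TMEM44-AS1 (-3.59), RBM26-AS1 (-3.20), ID2-AS1 (-3.03) and SDCBP2-AS1 (-2.97). Without vehicle replicate 1 the ratio calls for SYT15-AS1 (FDR = 0.0563) and SDCBP2-AS1 (FDR = 0.109) were lost. Without vehicle replicate 2 those for SYT15-AS1 (FDR = 0.0877), SDCBP2-AS1 (FDR = 0.182) and GLIPR1-AS1 (FDR = 0.0657) were lost. ID2 is an inhibitor of basic helix-loop-helix transcription factors, and it rose from 81.0 and 65.2 CPM to 589 and 601 CPM (3.03), whereas ID2-AS1 had 2.23 and 1.69 CPM with vehicle and 1.91 and 1.98 CPM with CPI-455 (-0.01). GLIPR1, a gene induced by p53, also rose (3.10), and GLIPR1-AS1 inside it had 60 and 69 counts with vehicle against 16 and 0 with CPI-455, with an FDR of 0.126, and was called lower without CPI-455 replicate 1 (FDR = 7.91e-06). The log2 fold change of GLIPR1-AS1 was -8.59 without CPI-455 replicate 1, a size that depends on the count added since the library left is at 0, and -0.78 without CPI-455 replicate 2.

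In 23 pairs the antisense gene and the partner were called in opposite directions, 20 of them with the antisense gene higher. In the 424 pairs 150 antisense genes were called higher and 50 lower, and 72 partners higher and 90 lower. Those totals alone favour pairs with the antisense gene higher and the partner lower. Whether 23 differs from the number that unlinked genes would give was not tested. Of these 23 pairs 15 were head-to-head, beside 207 overlapping and 32 apart among the 424 pairs with both genes tested. The ratio was called in all 23, which nearly follows from their choice, since the genes each moved at least 2-fold in opposite directions. NUTM2B-AS1 had 299 and 306 counts with vehicle against 310 and 156 with CPI-455 (1.23), while NUTM2B had 24 and 23 counts with vehicle against 0 and 0 with CPI-455, at least 2.35-fold lower against the floor of 3 counts in each library. ASH1L-AS1 (3.80) stood against ASH1L (-1.16), UBOX5-AS1 (3.65) against UBOX5 (-1.17) and PARD6G-AS1 (2.11) against the polarity gene PARD6G (-2.04). FOXP4-AS1 had 1.47 and 1.47 CPM with vehicle and 10.0 and 10.9 CPM with CPI-455 (2.82), and the forkhead factor gene FOXP4 had 65.6 and 73.5 CPM and 22.9 and 34.1 CPM (-1.31), with no overlap in either. ILRUN-AS1 was higher (2.52) and ILRUN lower (-1.53). With the trend on length and GC content removed the log2 fold changes were 1.19 for ILRUN-AS1 (FDR = 0.0236), 1.88 for FOXP4-AS1, 3.03 for ASH1L-AS1 and -2.62 for TMEM44-AS1, in the same directions. FZD10-AS1, beside a Wnt receptor gene, was higher by 1.06 and FZD10 lower (-2.91), but the antisense call was lost without vehicle replicate 1 (log2 fold change 0.92), without CPI-455 replicate 2 (0.67) and with library totals alone. TMEM44-AS1 showed the reverse most strongly. It had 7.24 and 6.91 CPM with vehicle and 2.02 and 1.78 CPM with CPI-455 (-1.87), and TMEM44 had 11.1 and 8.84 CPM and 39.4 and 24.8 CPM (1.71).

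**Figure D4:**
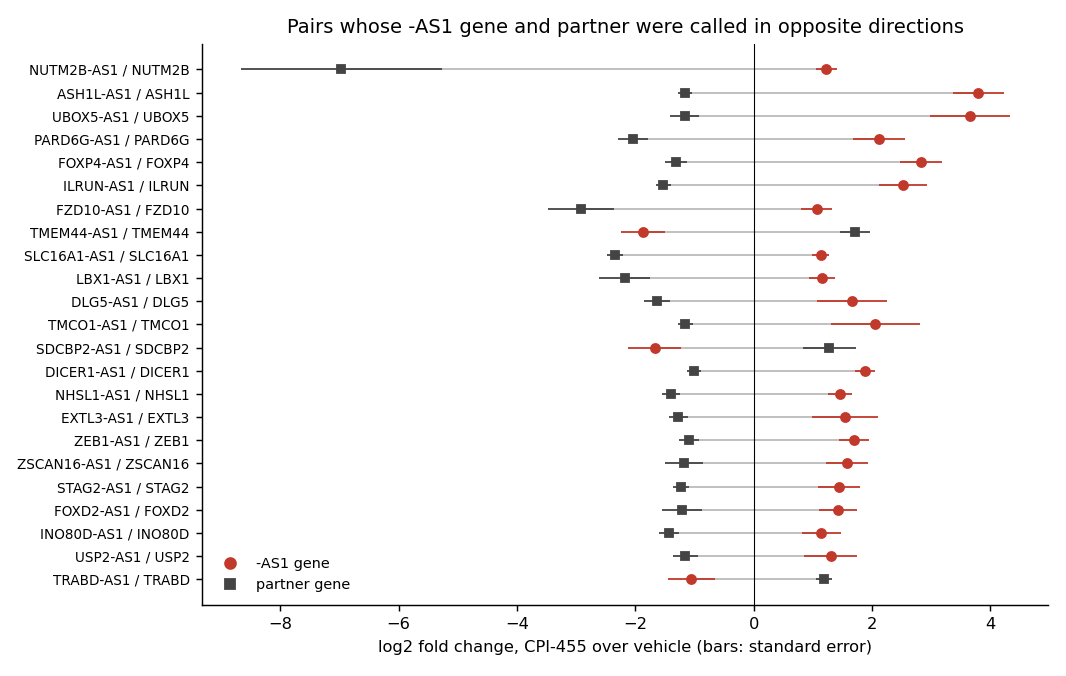
The 23 pairs called in opposite directions, with the log2 fold change, CPI-455 over vehicle, of the -AS1 gene (red circles) and of its partner (dark squares) on 1 line per pair and bars for the standard error. In 20 pairs the red circle lies to the right of zero and the square to the left, and in TMEM44-AS1, SDCBP2-AS1 and TRABD-AS1 the order is reversed.

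How a pair is arranged was read from the exons in the count files. Head-to-head pairs that overlap numbered 212, head-to-head pairs apart 33, tail-to-tail pairs that overlap 88 and those apart 4, while 84 antisense genes lay inside the partner and 33 ran around it. Genes inside the partner had 38 called higher and 1 lower of 79 tested, and their median log2 fold change was 1.30. Overlapping head-to-head genes had 64 higher and 35 lower of 209 (median 0.55), and these 35 are most of the 52 lower calls. Overlapping tail-to-tail genes had 31 and 9 of 86 (0.75), head-to-head genes apart 11 and 1 of 33 (0.19), and genes around the partner 11 and 5 of 33 (0.60). The shares over all genes are those given above, 21.0% higher and 21.3% lower. The 38 higher calls inside the partner became 30 with the trend on length and GC content removed. They were also fewer when either vehicle replicate was left out. The count of 1 lower call inside the partner moved to 13 without CPI-455 replicate 1, to 5 without CPI-455 replicate 2 and to 11 with the trend on length and GC content removed. Without vehicle replicate 1 there were 40 higher and 18 lower among overlapping head-to-head genes, 21 and 5 among overlapping tail-to-tail genes, 5 and 0 among head-to-head genes apart and 8 and 4 among genes around the partner. Without vehicle replicate 2 these were 36 and 13, 17 and 4, 6 and 0, and 7 and 4.

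By exon overlap, members with over 90% of their exon bases inside another gene's span had 62 called higher and 8 lower of 147 tested (median 1.14), those with more than 50% to 90% had 30 and 6 of 88 (0.76), and those with up to 50% had 57 and 37 of 183 (0.53). The 29 tested members with no exon base inside another gene had 9 called higher and 1 lower, and their median was -0.05, close to that of all genes. Fragments of a partner's introns can fall on antisense exons that lie within its span, and how many did so was not tested. Starts within 1000 bases of the partner's start, the arrangement of a shared promoter region, were found for 162 tested members, of which 44 were called higher and 31 lower (median 0.20). Their partners had 21 higher and 44 lower of 160.

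**Figure D5:**
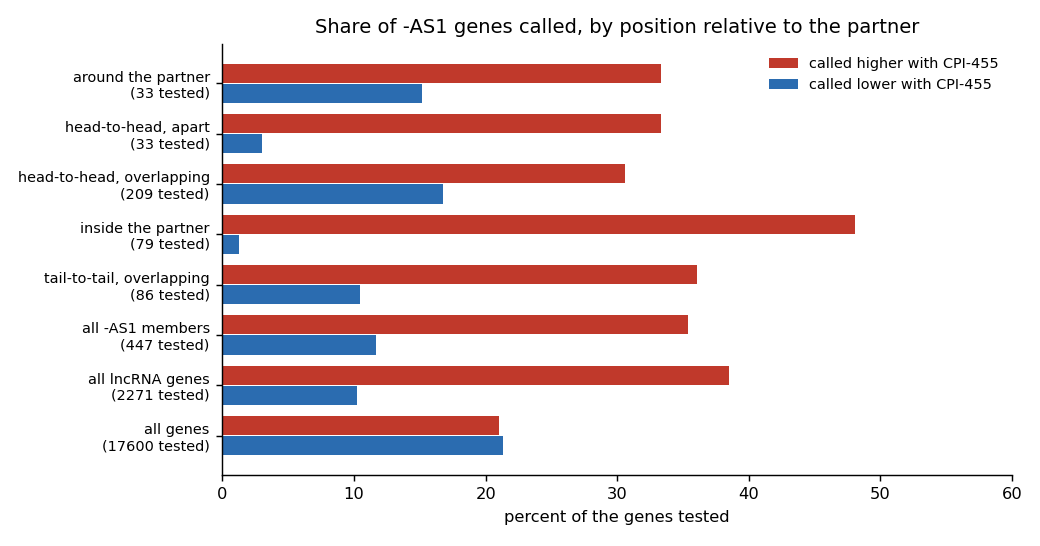
Bars give the percent of tested genes called higher (red) or lower (blue) with CPI-455 for -AS1 genes in each arrangement of at least 10 tested, beside all -AS1 members, all lncRNA genes and all genes. Genes inside the partner have the longest red bar and the shortest blue one, and overlapping head-to-head genes have the longest blue bar of the arrangements.

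Promoter windows were used to see whether members that moved in one direction shared sequence. RefSeq (GRCh38.p14) gave a window of 300 bases, 250 before the start and 50 after it, for 326 members, and 284 of these starts lie within 1000 bases of the start in the count files. The median GC content was 64.3% in the members and 58.3% over 27305 promoters of all genes. The GC box GGGCGG, bound by SP1-type factors and searched on both strands as were all motifs, was in 61.7% of the members' windows and in 44.6% of all windows. The TATA box, as TATAAA, was in 6.13% and 12%. The windows of all genes were taken without regard to counts, whereas members had at least 40. What part of these gaps comes from that difference was not tested. The core site of ETS factors, CCGGAAG, was in 12 of 44 windows of members called lower (27.3%), in 10 of 100 called higher (10.0%), in 23 of 175 not called (13.1%) and in 10.7% of all windows. This was the widest gap between classes among the motifs searched, and no motif was tested. In the same order of classes the GC box was in 61.4%, 55.0% and 65.1%, and the E-box, CACGTG, in 1, 10 and 18 windows. The androgen receptor half-site, AGAACA, was in 7.98% of the members' windows and 14.9% of all. These are matches of letters, not sites, and the classes also differ in how they lie to their partners. The 4 windows given here show members called in each direction whose window holds no exon of the partner, with GC boxes in capitals.
GATA6-AS1, higher, chr18:22168919-22169218, minus strand: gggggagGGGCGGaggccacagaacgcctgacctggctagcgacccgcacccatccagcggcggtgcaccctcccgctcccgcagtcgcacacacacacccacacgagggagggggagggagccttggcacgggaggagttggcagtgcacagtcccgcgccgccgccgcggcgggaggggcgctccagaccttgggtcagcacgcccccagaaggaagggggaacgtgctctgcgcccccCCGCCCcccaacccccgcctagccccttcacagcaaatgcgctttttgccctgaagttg
ASH1L-AS1, higher, chr1:155561792-155562091, plus strand: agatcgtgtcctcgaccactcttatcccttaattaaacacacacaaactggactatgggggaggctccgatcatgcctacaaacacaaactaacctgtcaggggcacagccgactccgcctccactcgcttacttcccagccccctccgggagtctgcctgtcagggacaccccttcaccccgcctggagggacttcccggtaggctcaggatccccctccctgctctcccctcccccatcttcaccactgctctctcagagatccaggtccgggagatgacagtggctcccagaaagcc
FOXD2-AS1, higher, chr1:47434592-47434891, minus strand: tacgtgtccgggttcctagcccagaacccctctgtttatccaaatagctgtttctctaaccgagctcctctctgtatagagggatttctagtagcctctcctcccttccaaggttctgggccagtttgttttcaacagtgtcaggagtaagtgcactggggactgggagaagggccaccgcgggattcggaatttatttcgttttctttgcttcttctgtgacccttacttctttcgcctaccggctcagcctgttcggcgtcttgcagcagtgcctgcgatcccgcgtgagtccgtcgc
SYT15-AS1, lower, chr10:46598096-46598395, minus strand: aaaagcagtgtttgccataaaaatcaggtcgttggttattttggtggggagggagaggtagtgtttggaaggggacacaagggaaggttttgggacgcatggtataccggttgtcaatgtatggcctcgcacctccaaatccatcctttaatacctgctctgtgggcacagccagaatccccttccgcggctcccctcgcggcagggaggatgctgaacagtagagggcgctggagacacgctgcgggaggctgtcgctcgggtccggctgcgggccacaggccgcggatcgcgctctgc
The GATA6-AS1 window holds 2 GC boxes and the other three none, so a rise was seen both with and without that motif.

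Members were also grouped by what the partner does, and no test of a group was made. The counts stand beside 35.3% of all tested members called higher and 11.6% lower, and 21.0% and 21.3% of all genes. Antisense genes of homeobox and other developmental factors had 9 of 17 called higher and 0 lower (median log2 fold change 1.15), whereas their partners had 1 called higher and 6 lower. TBX2-AS1, beside a T-box gene, had 5.02 and 4.12 CPM with vehicle and 30.9 and 28.9 CPM with CPI-455 (2.71, FDR = 8.55e-06), with TBX2 not called. LBX1-AS1 (1.16) and FOXD2-AS1 (1.42) were higher and their partners LBX1 (-2.18) and FOXD2 (-1.21) lower. Without vehicle replicate 1 LBX1-AS1 fell just short of 2-fold (log2 fold change 1.0). GATA2-AS1, beside a zinc finger factor gene of the GATA family, had 17.4 and 17.4 CPM with vehicle and 13.7 and 9.72 CPM with CPI-455 (-0.55, FDR = 0.0651).

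Antisense genes of membrane transporters had 10 of 18 called higher and 0 lower (median 1.44), with 3 of 16 partners higher and 4 lower. They include SLC9A3-AS1, SLC16A1-AS1 and SLC16A4-AS1 described above. SLC25A25-AS1, beside a mitochondrial carrier gene, had 15.8 and 15.8 CPM with vehicle and 63.9 and 48.0 CPM with CPI-455 (1.84), and SLC25A25 had a log2 fold change of -0.90. The ubiquitin and proteasome group had 7 of 10 called higher and 1 lower (median 1.34). FBXL19-AS1 had 5.21 and 7.10 CPM with vehicle and 41.9 and 36.3 CPM with CPI-455 (2.67), while the F-box gene FBXL19 was not called (-0.53). TRIM52-AS1 was higher together with TRIM52 (1.39 and 1.63), and OTUD6B-AS1 had a log2 fold change of -0.63, under 2-fold.

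Of 13 antisense genes beside chromatin and transcription factors 7 were called higher and 2 lower (median 1.83), with 0 partners higher and 2 lower. MED8-AS1, inside a Mediator subunit gene, had 50 and 48 counts with vehicle against 85 and 33 with CPI-455 (1.83). TAF1A-AS1, beside a subunit gene of the RNA polymerase I factor SL1, had 158 and 202 counts with vehicle against 30 and 10 with CPI-455 (-1.58, FDR = 0.00423), a call lost without vehicle replicate 2 (FDR = 0.0721). Beside RNA-processing genes 5 of 13 were higher and 2 lower. NOP14-AS1, of a ribosome assembly factor, was higher (2.83). In the DNA replication and repair group 2 of 5 were higher and 0 lower, with XPC-AS1 (-0.38) and ERCC6L2-AS1 (-0.67) not called, and XPC itself, a damage sensor, was lower (-1.38). Of 4 beside mitochondrial genes MRPL23-AS1 (3.76) and MRPS9-AS1 (3.77) were higher, with 7 and 7 counts and 3 and 5 counts with vehicle. The call for MRPS9-AS1 was lost without vehicle replicate 1 (FDR = 0.107) and without vehicle replicate 2 (FDR = 0.077). MRPL20-AS1 (-0.56) and IDH1-AS1 (0.96) were not called.

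In the groups that remain, calls in both directions were found. The 29 beside zinc finger genes had 5 called higher and 4 lower (median -0.18), and 8 of their 29 partners were lower and 1 higher. ZNF674-AS1, 36 bases from its partner's start, had 18.1 and 16.0 CPM with vehicle and 18.8 and 13.3 CPM with CPI-455 (-0.07), and its groups overlapped. ZFHX3-AS1 (-0.52) and ZNF213-AS1 (-0.18) were not called, and ZNF232-AS1 was higher (1.30). The 19 beside kinases and signalling genes had 4 higher and 5 lower, among the latter PTPRG-AS1 (-1.38, with PTPRG lower by a log2 fold change of -1.07) and PPP3CB-AS1 (-1.55), beside a calcineurin subunit gene, a call lost without vehicle replicate 2 (FDR = 0.0763). RASSF8-AS1 (0.66) was not called, although RASSF8 was lower (-2.46). The 17 beside trafficking and cytoskeleton genes had 3 higher and 4 lower, with VPS9D1-AS1 higher (1.53) and SH3BP5-AS1 (-0.24) and KIF9-AS1 (0.10) not called.

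A list of 20 -AS1 genes known from work on cancer or on prostate cells held 14 members, of which 8 were called higher and 3 lower, beside 47.0% of all tested members and 42.4% of all genes called either way. The lower ones were FGD5-AS1, PCBP1-AS1 and TMPO-AS1, described above. DICER1-AS1, beside the gene for the nuclease that cuts miRNA precursors, had 16.4 and 14.5 CPM with vehicle and 51.2 and 62.9 CPM with CPI-455 (1.88, FDR = 1.59e-05), and DICER1 was lower (-1.01). ZEB1-AS1, beside a gene for a repressor of epithelial identity, had 5.40 and 4.35 CPM with vehicle and 15.7 and 15.9 CPM with CPI-455 (1.70), with ZEB1 lower (-1.09). In both pairs the groups did not overlap for either gene. PSMA3-AS1 (1.20), MAPKAPK5-AS1 (1.27), MCM3AP-AS1 (1.07) and CBR3-AS1 (1.19) were higher too. The call for MAPKAPK5-AS1 was lost with the trend on length and GC content removed (log2 fold change 0.95). The call for MCM3AP-AS1 was lost with library totals alone (0.88) and without vehicle replicate 2 (0.87), and that for CBR3-AS1, which has been studied in prostate cancer, without vehicle replicate 1 (FDR = 0.238) and without vehicle replicate 2 (FDR = 0.344), as well as with DESeq2 (FDR = 0.0981) and library totals alone (FDR = 0.065).

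SOCS2-AS1, an antisense RNA described as androgen-induced, had 2.75 and 2.98 CPM with vehicle and 3.04 and 3.37 CPM with CPI-455 (log2 fold change 0.15, SE 0.42, FDR = 0.769). CDKN2B-AS1, the lncRNA also called ANRIL, had 4.50 and 3.80 CPM with vehicle and 6.30 and 3.97 CPM with CPI-455, groups that overlap (0.34, SE 0.37), and KDM4A-AS1 had a log2 fold change of 0.44 (SE 0.53). A p above the threshold does not show that these levels were alike, since their standard errors allow changes near 2-fold. POTEF-AS1 with 16 counts, HIF1A-AS1 with 20 and DSCAM-AS1 with 0 fell below the minimum, and 3 other symbols of the list were not matched.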

How the data were processed

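RNA-seq was analysed from 4 LNCaP libraries, 2 with R1881 and vehicle and 2 with R1881 and CPI-455, which the methods call biological replicates. The authors trimmed reads with Trim Galore and aligned them with STAR to GRCh38. Fragments were then assigned to the exons of Ensembl release 83, for which featureCounts (v1.5.0-p1) was used. The deposited values are raw, unnormalized counts per gene, in a file per library. Per the file headers strand was not used, and fragments aligned to several places or genes were left out. Whether the kit marked strand is not given in the sources used here. Symbols were matched for 56558 of 60675 genes, and gene types were those of GENCODE release 44.

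Counts were fitted with edgeR 4.0.16 in R 4.3.3 (TMM, filterByExpr at 10 counts, glmQLFit and glmQLFTest, no covariates) on all genes, and called at an FDR below 0.05 and at least 2-fold. CPM values are scaled with the TMM factors. The ratio of each antisense gene to its partner was tested with the same functions on stacked counts with a term for each library, over 1512 pairs of a tested lncRNA and its named partner, or otherwise the nearest tested protein-coding gene on the other strand within 5000 bases. DESeq2 1.42.0 and limma 3.58.1 served as alternatives. On simulated counts with 200 genes changed by 1.5 on the log2 scale, the gene test recovered 149 (74.5%) and called 4 others of 17600, and the ratio test recovered 135 (67.5%) and called 0 others of 1512 pairs.

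The members and lists were chosen with earlier results of these data known. Genes named are the 10 most abundant members, the 8 largest called changes each way and the 6 largest ratio changes each way at 100 counts or more, the 8 largest opposite pairs, a list of 20 known genes, up to 4 of highest level in each partner group and the 3 on either side of the minimum. Exon positions are those of the files, and promoter windows are from RefSeq on GRCh38.p14. Some genes that these rules name are not reported here. The alternatives were other size factors, filters, tests and thresholds, a trend on length and GC content, a replicate block, other count minimums, members free of overlap and leaving out each library.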

Additional observations from a re-analysis of the deposited data

How the results depend on the processing

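Leaving out each library in turn gave 95 to 168 members called higher and 21 to 78 lower, 77 to 166 ratios called higher and 17 to 57 lower, and no called member was called the other way in any fit run. Testing against a 2-fold change with glmTreat gave 97 members higher and 27 lower, and 46 partners higher and 53 lower. A minimum of 10 counts in every library left 22 members lower and, asked of both genes, 21 ratios lower. That filter removes genes that fell to few counts, among them all of the most lowered members named except RBM26-AS1 and TMPO-AS1. It also removes FMNL1-AS1 and RDH10-AS1 of the most raised members. Those it removes from the opposite pairs include UBOX5-AS1, TMEM44-AS1 and SDCBP2-AS1. RBM26-AS1, TMPO-AS1 and the other most raised members named kept their calls under it. Members with no exon base shared with another gene had 24 higher and 3 lower, those with no exon base inside another gene 9 and 1, and pairs with the antisense exons outside the partner 14 ratios higher and 2 lower, all from fewer genes tested. Of the alternative counts, 20 moved by more than 1.5 times and 74 did not.

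The replicate numbers did not pair the libraries: deviations of same-numbered replicates had a correlation of 0.05. With the replicate block there were 147 members higher and 47 lower and 125 ratios higher and 37 lower, and 191 of the 210 calls remained. The deeper vehicle libraries resolve levels that the CPI-455 libraries cannot, where 3 counts equal up to 0.595 CPM.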
